A study of Rattus norvegicus with 27 samples.

Results

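The second week of culture on plastic was examined by comparing primary rat lung fibroblasts at day 14 with those at day 7. The comparison takes every listed library labelled Plastic day 14 and every listed library labelled Plastic day 7, which gives 4 and 3 libraries, 7 of the 27 in the series. All of the cells came from lungs of Sprague-Dawley rats, an outbred stock, and had been bound by magnetic beads against CD90 (Thy-1, a surface antigen of fibroblasts). They were grown in MucilAir medium on plastic, coated beforehand with 38 µg/ml of collagen I from rat tail. The groups differ in the days of culture. The headers of the count table mark all 27 libraries as WT (wild type) and MonoCulture, and carry a further entry, Non, that the sources used here do not explain. The labels give neither the rats' age and sex nor the animal or cell isolation behind each library. The p-values therefore measure only the spread between libraries, which may be technical. In the main fit of genes this spread is estimated over all 27 libraries. The 8 libraries of PDMS day 7 and PDMS day 14 (4 each), from cells on a collagen-coated silicone of 3 to 5 kPa, serve as the reference for the same step on a soft surface.

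Lung fibroblasts build and remodel the collagen-rich matrix of the organ. On stiff surfaces such as culture plastic they are known to take on a contractile, matrix-producing myofibroblast state that depends on tension in the actin cytoskeleton and on TGF-beta signalling. Over days on plastic this state is known to become more stable, and soft silicone is used to hold the cells closer to the compliance of tissue. The count table names genes by Ensembl rat IDs only, and 0 of 32753 IDs could be paired with a symbol. Gene functions, Thy1 and the other fibroblast markers, and the markers of other cell types were therefore not looked up, and genes are described by level and course. In bulk RNA such as this, fewer cells of a type and less RNA per cell cannot be told apart.

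The 7 libraries held 17.5 to 21.3 M counts (M, mega). They did not fall cleanly into the 2 days. Plastic day 14 replicate 4 correlated with Plastic day 7 replicate 3 at a Pearson r of 0.972 across genes, and with the other Plastic day 14 libraries at 0.933 to 0.936 (log2 counts per M, CPM, of 14258 genes, which are not independent). Plastic day 7 replicate 3 in turn correlated with the others of its group at 0.963 and 0.944. In Plastic day 14 replicate 4, 1961 genes lay more than 2-fold above or below all 3 other libraries of its group, which is 13.8% of those tested. The same count was 343 for Plastic day 14 replicate 1, 116 for replicate 2 and 84 for replicate 3. Within day 7, where only 2 other libraries set the range, it was 517 for replicate 1, 1302 for replicate 3 and 1154 for replicate 4. Plastic day 14 replicates 2 and 3 were the most alike, at r = 0.993. Their counts differed with a chi-square of 8.14 per gene, against 40.2 to 199 for the other pairs of day 14. Sampling noise alone would give about 1, so they were not treated as 1 library deposited more than once. Plastic day 4 replicates 1 and 2 were as alike, at 7.74. Whether such a pair shares a culture or an animal is not known, and with the libraries of each pair summed edgeR called 0 genes (1705 at an unadjusted p under 0.05).

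The leading axis of the 7 libraries was not the day. Principal component analysis of log2 CPM put 44.9% of the variance on its first axis. Plastic day 14 replicate 4 scored 97.7 on it and Plastic day 7 replicate 3 scored 41.5. The other Plastic day 14 libraries scored -16.8 to -16.9, and Plastic day 7 replicates 1 and 4 scored -24.4 and -64.2. The second component carried 29.1% and did separate the days. On it the day 7 libraries scored 32.2 to 47.2, and the day 14 libraries -48.8, -47.9, -32.3 and, for replicate 4, 6.0. The difference between the days took 27.7% of the sum of squares of log2 CPM over the 7 libraries (one-sided exact permutation p = 0.114, and 0.343 after Benjamini-Hochberg adjustment over 3 tests). With 35 assignments of the labels the smallest p possible is 0.0286. Without Plastic day 14 replicate 4 the share was 41.6% (one-sided exact permutation p = 0.1). That is the smallest p possible there, since swapping the day labels of equal groups leaves the share unchanged.

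**Figure D1:**
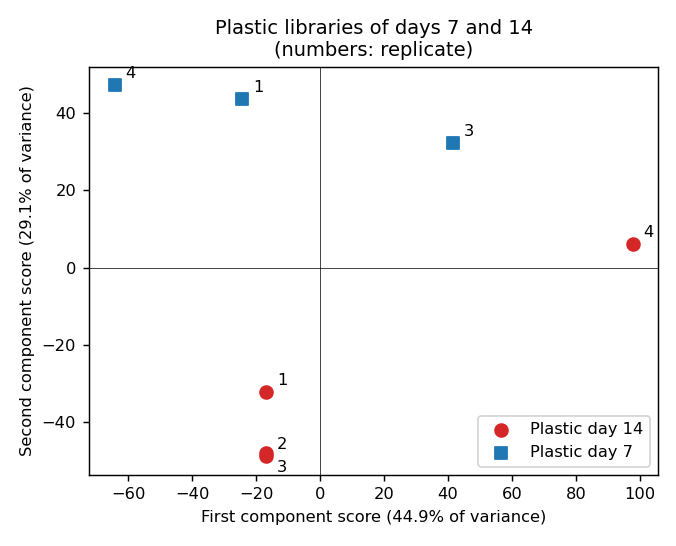
Scores of the 7 plastic libraries on the first component (horizontal, 44.9% of the variance of log2 CPM) and the second (vertical, 29.1%), with circles for day 14, squares for day 7 and replicate numbers beside the points. Plastic day 14 replicate 4 lies far to the right of its group, on the side of Plastic day 7 replicate 3, and the second component places all day 7 libraries above all day 14 libraries.

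Between day 7 and day 14 on plastic, 12 of 14258 genes were called as changed, which is 0.0842% of those tested. This count is of the main setting and varied with the setting, as given below. Of these, 3 rose (0.021%) and 9 fell (0.0631%) (edgeR quasi-likelihood test, Benjamini-Hochberg adjusted p = 0.0415 for each, n = 4 and 3). The 3 rises had log2 fold changes of 1.85, 1.85 and 0.98. The 9 falls ran from -0.74 to -3.11 with a median of -1.64, beside a median of 0 over all genes. In all 12 genes the day 14 libraries did not overlap with the day 7 libraries, which was so in 14.6% of all genes tested, 7.35% upward and 7.22% downward. Calling and separation rest on the same values here.

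Of the IDs that rose, ENSRNOG00000008846 was a gene of low level. It stood at 3.65, 2.89 and 1.67 CPM in Plastic day 7 replicates 1, 3 and 4. At day 14 it stood at 8.09, 8.39, 9.09 and 14 CPM in replicates 1 to 4. The lowest day 14 library was thus more than 2-fold above the highest day 7 library, and replicate 4 was the highest of day 14. The log2 fold change was 1.85 ± 0.35 (SE; edgeR adjusted p = 0.0415), a 3.61-fold rise. At Plastic day 4 the ID had stood at 1.49 ± 0.45 CPM (SD, n = 4), with a range of 0.97 to 2.08, which overlaps day 7.

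The other rise was of an abundant transcript. ENSRNOG00000010208 stood at 257, 284 and 253 CPM in the day 7 libraries and at 896, 1160, 1190 and 562 CPM in the day 14 libraries, replicates in order. The day 7 values lay close together, and replicate 4 was here the lowest of day 14. The log2 fold change was 1.85 ± 0.36 (SE; edgeR adjusted p = 0.0415). By mean CPM the ID moved from rank 657 of the genes tested to rank 141. It had been nearly level before, at 213 ± 61.3 CPM at Plastic day 4 (SD, n = 4) and 265 ± 16.7 at day 7 (n = 3).

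Among the IDs that fell, ENSRNOG00000003098 had the largest change and an uneven start. It stood at 16.8, 5.82 and 29.2 CPM in Plastic day 7 replicates 1, 3 and 4, with replicate 3 well below the others. At day 14 it stood at 2, 1.89, 2.48 and 1.61 CPM, close together and below all of day 7. The log2 fold change was -3.11 ± 0.58 (SE; edgeR adjusted p = 0.0415). Day 4 was as uneven, at 33.2, 32.3, 6.34 and 15.4 CPM, and overlapped with day 7.

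ENSRNOG00000021812 fell from a more even start. It stood at 8.06, 11.5 and 11.9 CPM in the day 7 libraries and at 2.66, 1.28, 0.90 and 1.56 CPM in the day 14 libraries. The log2 fold change was -2.71 ± 0.53 (SE; edgeR adjusted p = 0.0415). Its mean had been 16.8 ± 4.76 CPM at Plastic day 4 (SD, n = 4), so the order of the means was day 4, day 7, day 14, with overlap between day 4 and day 7 in 1 library.

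**Figure D2:**
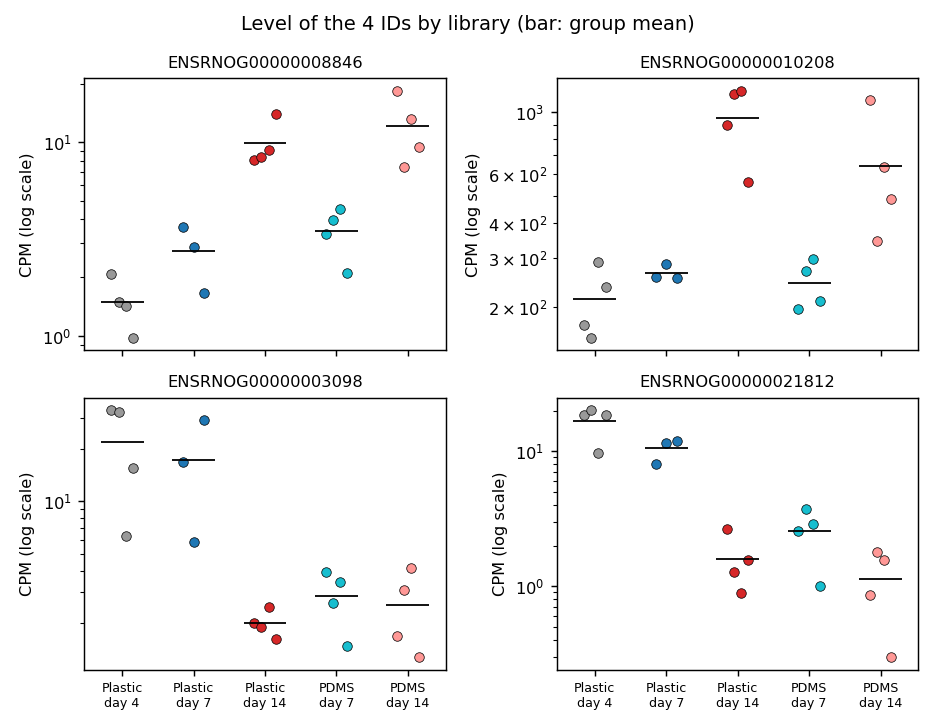
CPM on a log scale of the 4 IDs in each library (points) with the group mean (bar), for Plastic days 4, 7 and 14 and PDMS days 7 and 14. The upper pair rises at day 14 on both surfaces, and the lower pair falls at day 14 on plastic, while its PDMS day 7 libraries already lie between 1 and 3.91 CPM.

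The other 8 called genes included 4 modest falls of well expressed genes. Their log2 fold changes were -0.74, -0.76, -0.90 and -1.06, and their mean CPM went from 73.4 to 44.1, 178 to 105, 67.7 to 36.4 and 38.1 to 18.3. These had small standard errors (0.14 to 0.20). The remaining 3 falls were larger, at -1.64, -2.35 and -2.91, with means that went from 54.5 to 17.5, 12.5 to 2.43 and 4.55 to 0.60 CPM. The third rise, at 0.98 ± 0.19 (SE), went from 17.5 to 34.5 CPM. Averaged over the 9 falls, the mean log2 CPM was 5.65, 5.70, 4.85 and 5.29 at Plastic day 4, 4.84, 4.48 and 5.19 at day 7 and 3.43, 3.05, 2.86 and 3.11 at day 14. Day 4 and day 7 overlapped and day 14 lay apart. The genes were chosen on the day 7 and day 14 libraries, which pushes the second interval to look larger than the first.

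The 12 calls stood close to the threshold. All 12 kept their sign and an unadjusted p under 0.05 when any 1 of the 7 libraries was left out, but the adjusted p crossed the threshold. The kept sign and unadjusted p were nearly fixed in advance. The 12 were called on these libraries, and in none of them did the days overlap. With edgeR there were 0 calls without Plastic day 7 replicate 1 or replicate 4, and 0 without Plastic day 14 replicate 1, 2 or 3. In these 5 fits 1291 to 2060 genes stayed under 0.05 before adjustment. Leaving out Plastic day 7 replicate 3 gave 4 calls, all of them among the 12. Without Plastic day 14 replicate 4 there was 1 call, a rise that is not among the 12, while the adjusted p of the 12 ran from 0.0521 to 0.06. Without Plastic day 7 replicate 3 and Plastic day 14 replicate 4 together there were 0 (2093 genes at an unadjusted p under 0.05), with an adjusted p of 0.0658 to 0.107 for the 12. The folds moved less than the calls. Over the 7 fits the log2 fold change was 1.60 to 2.12 for ENSRNOG00000008846, 1.72 to 2.03 for ENSRNOG00000010208, -3.52 to -2.50 for ENSRNOG00000003098 and -3.07 to -2.51 for ENSRNOG00000021812. Among other tools, DESeq2 called 374 genes, 130 up and 244 down, among them all 12, and limma-voom called 0, with 1788 genes at an unadjusted p under 0.05. With library size in place of TMM 13 genes were called, of which 7.69% rose in place of 25%, and the median of all genes moved from 0 to -0.06.

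Beyond the called genes the fitted differences were mostly small, and they are described here without adjustment for the number of tests. At an unadjusted p under 0.05 there were 2042 genes, 14.3% of those tested, with 904 higher (6.34%) and 1138 lower (7.98%) at day 14. Their median log2 fold changes were 0.67 and -0.92. The middle 50% of all fold changes lay between -0.24 and 0.24, beside a median SE of 0.265. A log2 fold change above 1 in size was fitted for 1646 genes (11.5%), most of them uncalled.

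The precision differed with abundance. Among 1771 genes under 1 CPM (mean over the 27 libraries) the median SE of the log2 fold change was 0.753 and 0 were called, with 209 (11.8%) at an unadjusted p under 0.05. Among 3222 genes of 1 to 10 CPM the median SE was 0.425, and 1 rose and 3 fell. It was 0.191 among 7068 genes of 10 to 100 CPM, where 1 rose and 5 fell. Among 2197 genes of 100 CPM or more it was also 0.191, with 1 rise and 1 fall. The share of genes whose libraries did not overlap between the days was 11.1%, 14.4%, 14.4% and 18.2% from the lowest class to the highest. In genes of 1 to 10 CPM with an unadjusted p under 0.05 the falls were larger than the rises, with medians of -1.83 and 1.06. In genes of 100 CPM or more they were alike in size, at -0.49 and 0.50.

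**Figure D3:**
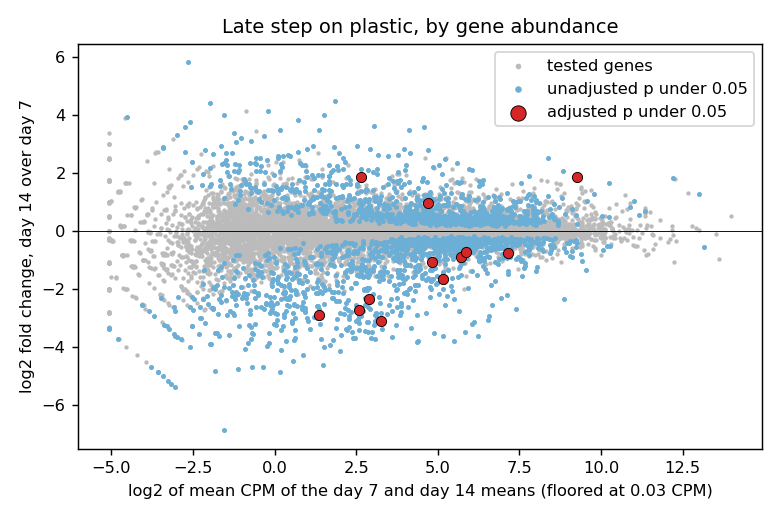
Log2 fold change from day 7 to day 14 on plastic (vertical) of each of 14258 tested genes against the log2 of its mean CPM over both days (horizontal, values under 0.03 CPM drawn at 0.03). The 12 called genes (large points) lie between log2 fold changes of -3.11 and 1.85, and genes with an unadjusted p under 0.05 lie on both sides at all levels.

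The spread of reads over genes was not shown to differ between the days. The effective number of genes (Shannon entropy of the reads' shares, raised as an exponent of e, and lower where few genes take most reads) was 2617, 3261 and 3400 in Plastic day 7 replicates 1, 3 and 4. It was 3014, 2895, 3001 and 2838 in the day 14 libraries, all within the day 7 range. The means were 3093 ± 418 (SD, n = 3) and 2937 ± 84.8 (n = 4), a difference of -156 (two-sided exact permutation p = 0.457, adjusted 0.686 over 3 tests). The day 14 libraries lay closer together, and Plastic day 7 replicate 1 was the lowest of all 7. Without it the difference was -394, without Plastic day 7 replicate 3 it was -71.6, and without Plastic day 7 replicate 4 it was -2.35. The top 10 genes took 11.3%, 8.07% and 7.65% of reads in the day 7 libraries and 9.13%, 9.30%, 9.03% and 9.72% in the day 14 libraries. The difference of means was 0.298 percentage points (two-sided exact permutation p = 0.886, adjusted 0.886). It was 1.43 without Plastic day 7 replicate 1, -0.163 without replicate 3 and -0.373 without replicate 4 of day 7. Of the 10 genes with the highest mean CPM, 7 were the same at both days. The 13 genes in either list had log2 fold changes from -1.06 to 1.79, and 0 of them were called (edgeR), with 2 at an unadjusted p under 0.05. Over all genes tested 0.0842% were called and 14.3% had an unadjusted p under 0.05, so these counts do not mark the 13 genes out.

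The same interval on PDMS gave 788 genes (5.53% of those tested), of which 417 rose (2.92%) and 371 fell (2.6%) (edgeR, adjusted p under 0.05, n = 4 and 4). At an unadjusted p under 0.05 there were 3819 genes (26.8%). The PDMS count ranged from 5 to 702 when 1 of the 8 libraries was left out. It was 376 without PDMS day 7 replicate 1, 5 without replicate 2 and 62 without replicate 4, and 22 without PDMS day 14 replicate 3 and 240 without replicate 4. The difference between the 2 steps, tested as an interaction, was called in 0 genes by edgeR (smallest adjusted p = 0.712). DESeq2 called 1 gene, limma-voom 0, and limma-voom with library weights, an alternative added after seeing the data, 1414. Before adjustment 980 genes had p under 0.05 by edgeR, 6.87% of those tested.

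The 3 genes that rose on plastic all rose on PDMS too, where 2.92% of all genes did. All 12 genes had the same sign on both surfaces. Among genes with an unadjusted p under 0.05 on plastic, 89% of the 904 higher and 80.7% of the 1138 lower ones had the same sign on PDMS. Over all genes 51% were above 0 and 48.9% below 0 on PDMS. In 7 of the 12 the PDMS libraries of the 2 days did not overlap, which was so in 23% of all genes. ENSRNOG00000008846 stood at 3.50 ± 1.04 CPM at PDMS day 7 and 12.2 ± 4.84 at PDMS day 14 (SD, n = 4 each). Its log2 fold change there was 1.79 ± 0.31 (SE; edgeR adjusted p = 0.0105), and plastic minus PDMS was 0.06 ± 0.45 (unadjusted p = 0.893, edgeR adjusted p = 0.981). ENSRNOG00000010208 stood at 243 ± 48.3 and 641 ± 328 CPM (n = 4 each). Its log2 fold change was 1.4 ± 0.32 (SE; edgeR adjusted p = 0.0231), and plastic minus PDMS was 0.45 ± 0.46 (edgeR adjusted p = 0.841). The third gene had a log2 fold change of 0.98 on both surfaces. The 3 genes make up 0.719% of the 417 rises on PDMS.

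The wider lists at an unadjusted p under 0.05 shared part of their genes across the surfaces, whose comparisons have no library in common. Scaling, filter and the error estimate of each gene are shared, however, so the lists are not independent. Whether cultures on plastic and on PDMS share an animal or a cell isolation is not known. Of the 904 genes higher at Plastic day 14, 46.2% were also higher at PDMS day 14 by this rule, beside 13.5% of all genes, and 0.332% were lower. Of the 1138 genes lower at Plastic day 14, 28.6% were lower on PDMS, beside 13.3% of all genes, and 0.703% were higher. The shared genes are 21.8% of the PDMS list of higher genes and 17.2% of that of lower genes.

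The 9 genes that fell on plastic divided into 5 that also fell on PDMS and 4 that did not pass there. The 5 are 55.6% of the 9, where 2.6% of all genes fell on PDMS. They had log2 fold changes of -0.50 to -1.76 on PDMS (edgeR adjusted p = 0.0105 to 0.0425) and are 1.35% of the PDMS falls. The 4 had folds of -1.64 to -3.11 on plastic and of -0.18 to -1.18 on PDMS (edgeR adjusted p = 0.134 to 0.856). In each of these 4 the PDMS libraries were already low at day 7. ENSRNOG00000003098 stood at 3.91, 2.61, 3.43 and 1.48 CPM at PDMS day 7 and at 1.68, 3.09, 4.14 and 1.27 CPM at PDMS day 14, groups that overlap. Its log2 fold change on PDMS was -0.18 ± 0.53 (SE; edgeR adjusted p = 0.856). ENSRNOG00000021812 stood at 2.57, 3.73, 2.87 and 1 CPM at PDMS day 7 and at 0.86, 1.78, 1.56 and 0.30 CPM at PDMS day 14. Its log2 fold change was -1.18 ± 0.49 (SE; edgeR adjusted p = 0.134).

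In all 4 of these genes the PDMS day 7 libraries lay below every Plastic day 7 library and overlapped with Plastic day 14. Over all genes tested, PDMS day 7 lay below Plastic day 7 without overlap in 10%, and overlapped with Plastic day 14 in 77.5%. The 4 genes were chosen for their calls on both surfaces, which rest on all the libraries compared here, so these levels and the differences of folds that follow are descriptions. Of the other 5 falls, 1 lay below without overlap. Plastic minus PDMS in log2 fold change was -2.93 ± 0.78 for ENSRNOG00000003098 (SE; unadjusted p = 0.001) and -1.53 ± 0.71 for ENSRNOG00000021812 (unadjusted p = 0.0432). Over the 4 genes the unadjusted p of this difference ran from 0.001 to 0.0432, and with edgeR's adjustment over all genes none passed (adjusted p = 0.712 at the least). The step of these genes was thus not shown to differ between the surfaces.

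**Figure D4:**
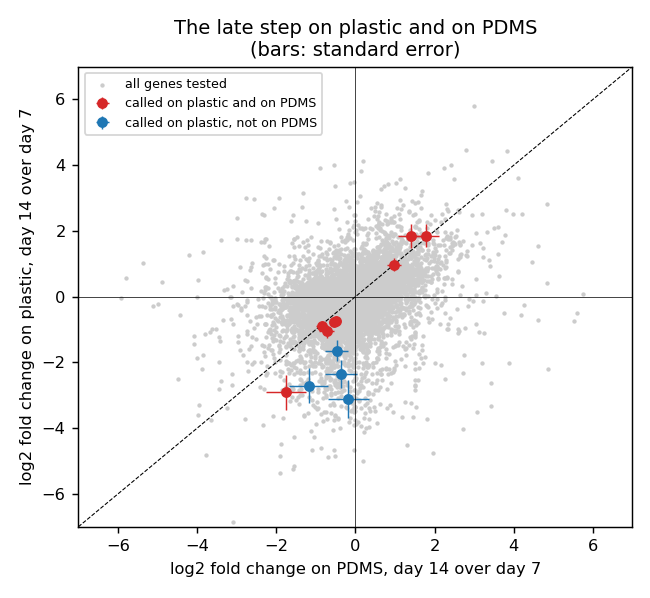
Log2 fold change from day 7 to day 14 on plastic (vertical) against that on PDMS (horizontal) for all tested genes (grey) and the 12 genes called on plastic, with standard errors as bars and a dashed line at equal change. The 3 rises lie near the line, and the 4 genes not called on PDMS lie below it, at -0.18 to -1.18 on PDMS.

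Genes chosen on PDMS libraries alone gave a view of the plastic step that does not use its own libraries for the choice. Scaling, filter and error estimate are shared, and whether animals or cell isolations are shared is not known. The 417 genes that rose from PDMS day 7 to PDMS day 14 had a median log2 fold change of 0.32 on plastic, and 374 of them (89.7%) were above 0, beside 50.3% of all genes. Their mean log2 CPM was 4.22, 4.39 and 3.86 in Plastic day 7 replicates 1, 3 and 4 and 4.48, 4.49, 4.53 and 4.92 at Plastic day 14, without overlap. Leaving out Plastic day 7 replicate 4 made the median 0.21, and leaving out Plastic day 14 replicate 4 made it 0.22. The 371 genes that fell on PDMS had a median of -0.27 on plastic, and 344 (92.7%) were below 0, beside 49.6% of all genes. Their means were 4.79, 4.69 and 5.23 at Plastic day 7 and 4.69, 4.72, 4.68 and 4.06 at Plastic day 14, which overlap. Apart from replicate 4 of each day, all of these means lay between 4.68 and 4.79. Here the median was -0.11 when Plastic day 7 replicate 4 was left out, and -0.14 when Plastic day 14 replicate 4 was. A fit without both of these libraries was not run. With Plastic day 7 replicate 3 and Plastic day 14 replicate 4 both left out the medians were 0.34 and -0.24, and with library weights 0.22 and -0.11. On PDMS the medians of these lists were 0.77 and -0.73, values that their choice pushes outward. For the 417 genes the PDMS means went from 3.71 to 3.95 at day 7 up to 4.69 to 5.01 at day 14. For the 371 genes they went from 5.12 to 5.48 down to 4.12 to 4.51. On plastic, 3 of the 417 genes (0.719%) were called as rises, beside 0.021% of all genes. Of the 371, 5 (1.35%) were called as falls, beside 0.0631% of all genes.

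The 21 genes that fell from PDMS day 4 to PDMS day 7 (edgeR, adjusted p under 0.05, 0 genes rose) had lower means on plastic at each later day. They are genes of low level, with a median of 1.66 CPM over the series. Their mean log2 CPM was 1.01, 1.12, 0.43 and 0.87 at Plastic day 4. It was -0.31, -0.78 and -0.32 at Plastic day 7, and -1.48, -1.31, -1.31 and -1.31 at Plastic day 14. No libraries of neighbouring days overlapped. On PDMS the mean was already -1.32, -1.79, -1.46 and -1.47 at day 7, and it was -1.82, -1.20, -1.07 and -1.79 at day 14. The median log2 fold change from day 7 to day 14 was -1.05 on plastic (-1.32 to -0.80 with 1 library left out, -1.46 without Plastic day 7 replicate 3 and Plastic day 14 replicate 4, and -1.61 in a fit of the 7 libraries alone), with 18 of 21 genes below 0, and 0.35 on PDMS, where the day 7 libraries that chose the genes push it upward. On plastic 0 of the 21 genes passed the adjusted test, beside 0.0842% of all genes. Of the 21, 9 had an unadjusted p under 0.05 and a lower level at day 14 (42.9%, beside 7.98% of all genes). In 8 the libraries did not overlap and day 14 was lower (38.1%, beside 7.22%).

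**Figure D5:**
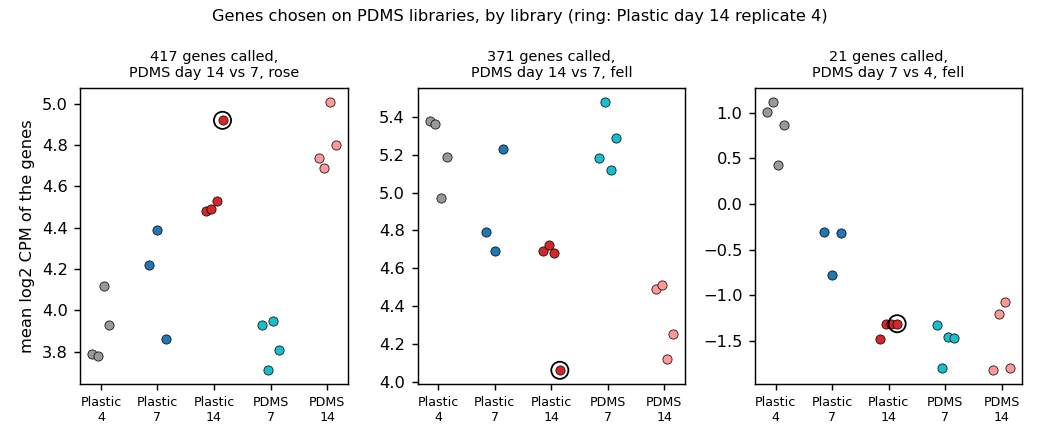
Mean log2 CPM per library (points) of 3 lists chosen on PDMS libraries: 417 genes that rose and 371 that fell from PDMS day 7 to day 14, and 21 that fell from PDMS day 4 to day 7. In the first panel Plastic day 14 lies above Plastic day 7, in the second they overlap and Plastic day 14 replicate 4 (ring, 4.06) is the lowest, and in the third Plastic day 7 lies between Plastic day 4 and Plastic day 14.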

How the data were processed

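The deposited table used here holds unscaled, whole-number counts for each Ensembl rat gene. Per the labels' protocols, libraries were made from 200 ng of total RNA with an Illumina TruSeq kit and sequenced on a HiSeq2000. The series design text names FastQC 0.11.2, bamUtil 1.0.11, dupRadar 1.4 and Cufflinks 2.2, and the submitters' processing notes also name STAR and DESeq2. No source used here gives the counting program, its use of strand, the build or the annotation. Overlapping or near-identical genes may thus share reads. The table has 28 columns, and 1 of them, of no listed sample, was left out. Reads-per-million and variance-stabilized tables were not used here.

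The analysis ran edgeR 4.0.16 under R 4.3.3. The filter filterByExpr (about 10 counts in at least 3 libraries) kept 14258 genes. Libraries were scaled by TMM, and all 27 libraries entered a quasi-likelihood fit of group means. Genes were called where p, after Benjamini-Hochberg adjustment, was under 0.05. An SE was obtained by dividing the log2 fold change by the root of its F statistic. CPM is per M of TMM-adjusted library size, and a prior count of 2 was added for log2 CPM. The fit was tested on simulated counts. Exact permutation tests were run over the 7 libraries.

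The 4 IDs are the 2 largest rises and 2 largest falls among called genes without overlap whose higher group averaged 5 CPM or more. The rule for genes with symbols and the 39 gene lists could not be applied. The libraries compared and all lists were chosen with earlier results of these data known. Alternatives were library size scaling, no filter, DESeq2 1.42.0, limma-voom (limma 3.58.1), each library left out, the 7 libraries alone, a replicate block and alike libraries summed. Added after seeing the data were surrogate variables (sva 3.50.0), voom with library weights, the share of variance, and leaving out Plastic day 7 replicate 3 with Plastic day 14 replicate 4.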

Additional observations from a re-analysis of the deposited data

Results flagged for a closer look

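In groups of 4, Dixon's test was used to look for single libraries far from the rest. It was applied 67 times, on 19 measures, and picked out a library 8 times, 3 of them Plastic day 14 replicate 4. Chance gives about 1 in 20, here 3.4, if the measures were independent and not drawn from the libraries tested. They share libraries and genes, and the first component is fitted so as to spread these same 7 libraries. The 8 and the 3.4 can therefore not be weighed against each other. On the first principal component of the 7 plastic libraries, Plastic day 14 replicate 4 scored 97.7 and the others of its group -16.9 to -16.8. In the 417 genes that rose on PDMS the same library had a mean log2 CPM of 4.92 beside 4.48 to 4.53, and in the 371 that fell on PDMS 4.06 beside 4.68 to 4.72. In the 21 genes that fell from PDMS day 4 to day 7, Plastic day 14 replicate 1 had a mean of -1.48, and the other 3 of its group all had -1.31. ENSRNOG00000021812 had a log2 CPM of 3.30 in Plastic day 4 replicate 3 and 4.23 to 4.34 in the others. In the 9 genes that fell on plastic, PDMS day 7 replicate 4 had a mean log2 CPM of 3.45 beside 3.83 to 3.89. In the 691 genes that fell from PDMS day 2 to day 4, Plastic day 4 replicate 4 had 2.67 beside 2.87 to 2.91. The total count was 20.6 M in PDMS day 14 replicate 3 and 24.2 to 24.7 M in the rest of that group.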

How the results depend on the processing

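The 12 calls on plastic became 13 with library size scaling, 374 with DESeq2, 83 and 677 with 1 and 2 surrogate variables, and 2211 with voom library weights, which were highest for the alike Plastic day 14 replicates 2 and 3 (3.92 and 5.12). They became 0 without a filter (2183 genes at an unadjusted p under 0.05), with limma-voom (1788), in the 7 libraries alone (1903), with alike libraries summed (1705), and without Plastic day 7 replicate 3 and Plastic day 14 replicate 4 together (2093). With a replicate block there were 0 calls (632 genes at an unadjusted p under 0.05), and the median of the 21 genes that fell from PDMS day 4 to day 7 was -1.73 in place of -1.05. The labels do not say whether the replicate numbers pair the libraries. Deviations from the group means correlated at -0.21, -0.45 and -0.57 between libraries of the same number. No library correlated best with its own number. With so few libraries per group these values cannot settle whether a pairing exists. Leaving out 1 library gave 0 to 4 calls. The 12 genes kept their sign in every setting, which was nearly fixed in advance since their libraries did not overlap between the days. The cause of each lost or gained call was not tested. The PDMS count of 788 became 651 with library size scaling, where 40.2% rose in place of 52.9%, 354 without a filter, 1033 with limma-voom, 1819 with DESeq2, 3607 with library weights, and 5 to 702 with 1 library left out. The interaction gave 0 calls, but 1 with DESeq2, 1414 with library weights and 0 to 1 with 1 library left out (1 without PDMS day 7 replicate 3). With 1 library left out, the difference in the effective number of genes was -394 to -2.35, that in the top 10 share -0.373 to 1.43 percentage points, below 0 without Plastic day 7 replicate 3 or 4, and the share of variance 25.9% to 41.6%. Leaving out mitochondrial genes was not run, since the IDs could not be matched. Genes under 1 CPM had a median SE of 0.753, and the part of depth in this was not tested.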

Other observations

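No gene of high level was detected at 1 of the days alone. Reads at Plastic day 14 and none at Plastic day 7 were seen for 1208 genes, with at most 24 reads over the 4 libraries. Reads at day 7 and none at day 14 were seen for 789 genes, with at most 37 reads over the 3 libraries, and 1 gene had at least 30. Day 14 has 1 library more, so these counts are not set against each other.

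Genes of the earliest step on PDMS had small median changes in the second week on plastic. The medians had the direction of that step, but the mean levels of the libraries did not separate the days. The 737 genes that rose from PDMS day 2 to day 4 had a median log2 fold change of 0.12 from Plastic day 7 to day 14. Of them 63.9% were above 0, beside 50.3% of all genes. The 691 genes that fell had -0.08, with 57.2% below 0, beside 49.6% of all genes. At an unadjusted p under 0.05 (edgeR), 10.7% of the rises were higher and 4.61% lower at Plastic day 14. Of the falls 4.34% were higher and 10.9% lower, beside 6.34% and 7.98% of all genes. Libraries did not overlap upward in 16.6% of the rises and downward in 5.56%. For the falls this was 9.41% and 10.4%, beside 7.35% and 7.22% of all genes. The mean log2 CPM of the rises was 5.59, 5.71 and 5.33 in Plastic day 7 replicates 1, 3 and 4. At Plastic day 14 it was 5.66, 5.59, 5.59 and 5.80, which overlaps day 7, and replicate 4 of day 7 was the lowest. For the falls it was 2.20, 2.16 and 2.24 at Plastic day 7 and 1.99, 2.04, 2.04 and 2.16 at day 14, which meet at 2.16. Leaving out single libraries was not run for these lists.

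The median SD of log2 CPM within a group was 0.294 at Plastic day 7 and 0.289 at Plastic day 14, and 0.161 at Plastic day 14 without replicate 4. At PDMS day 7 and day 14 it was 0.227 and 0.261.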
